A study of Mus musculus with 6 samples.

Results

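Smooth muscle contractile genes encode the filaments, the motor and the kinase with which airway and vessel walls tighten. The 10 genes described here, Acta2, Myh11, Cnn1, Tagln, Des, Actg2, Smtn, Lmod1, Synpo2 and Mylk, were chosen by name as textbook genes of this machinery. Earlier results of these data were known when they were chosen. For each gene the RefSeq transcript with the largest total over the libraries was taken, and all 10 were found among 23473 genes. The data are RNA-seq counts of whole lung from TSPO WT and TSPO KO mice on a C57BL/6 background, 6 to 8 weeks old, with 3 libraries per genotype. Each library was a pool of RNA from 3 littermates (9 mice per genotype), so the spread between libraries is that of pools. In KO mice the exons 2 and 3 of Tspo, which encodes a protein of the outer mitochondrial membrane, had been deleted in the whole body. The deletion was made by crossing floxed mice with protamine-Cre mice, in which the recombinase is active in the male germ line. The question was which genes of the lung change when TSPO is absent.

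Smooth muscle shortens when calcium, bound to calmodulin, switches on myosin light chain kinase. The kinase phosphorylates the light chain of smooth muscle myosin, and myosin then pulls on actin filaments until a phosphatase takes the phosphate off again. In the lung these cells ring the bronchi and bronchioles and form the media of pulmonary arteries and veins. Many of the genes are switched on together by serum response factor (SRF), which binds a short DNA element called the CArG box, with its coactivator myocardin.

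Totals over all genes were 9617086 to 11942318 counts per library. CPM stands for counts per library brought to one common size with the TMM method, which corrects for a few genes that take up a large share. Log2 fold changes are KO against WT, so that a negative value is lower in KO. Tspo fell in KO lungs by 2.87 on the log2 scale (adjusted p = 1.42e-07, edgeR's quasi-likelihood test). A pair of WT libraries stood apart from the rest. In WT replicate 3 the ribosomal RNA precursor Rn45s made up 11.4% of all counts, where the other libraries had 0.224% to 0.427%. In WT replicate 2 genes of skeletal muscle and brown fat were high, with 1002 counts of Acta1, the skeletal muscle actin, against 0 to 5 in the other libraries, and 378 counts of Ucp1, the heat-producing carrier of brown fat, against 0 to 4. The log2 fold changes of the contractile genes are also given without each of these libraries.

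All 10 contractile genes were well above the limit of detection in every library, from 174 counts of Lmod1 in WT replicate 3 to 6378 counts of Mylk in WT replicate 2. Levels of different genes can be compared only per length of transcript. Per kilobase of the matching GENCODE transcript, the order of mean CPM over the 6 libraries was Tagln at 238 ± 43.7 (SD, n = 6 libraries), Acta2 at 169 ± 19.3, Mylk at 64.8 ± 5.62, Des at 58.7 ± 6.98 and Myh11 at 47.6 ± 4.78. Cnn1 followed at 37.6 ± 7.45, Smtn at 24.4 ± 4.09, Actg2 at 24.1 ± 3.74, Lmod1 at 5.46 ± 0.707 and Synpo2 at 5.26 ± 0.982. The ranges of neighbours in this order overlapped, except at a pair of steps. Acta2, with at least 133 in each library, lay above Mylk, with at most 70.5, and Actg2, with at least 18.5, lay above Lmod1, with at most 6.62. The actin and the transgelin of smooth muscle thus had the most counts of the set per length. The actin nucleator gene Lmod1 and the Z-disc gene Synpo2 had the fewest. The order rests on a single transcript length for each gene. As given below, counts of Tagln and Smtn may hold reads of antisense neighbours, and Mylk also has shorter products.

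The actins form the thin filament. Acta2 encodes alpha smooth muscle actin, the form of vessels and airways, and lies on chr19:34240336-34255585 (mm10, RefSeq gene, minus strand). Its level was 368, 271 and 373 CPM in WT replicates 1, 2 and 3, and 370.2, 351 and 331 CPM in KO replicates 1, 2 and 3. WT replicate 2 was the lowest of all 6 libraries and the KO libraries lay inside the WT range. The mean CPM was 337 ± 57.8 for WT pools and 351 ± 19.5 for KO pools (SD, n = 3 pools), with a log2 fold change of 0.06 (standard error 0.13).
Actg2 encodes gamma smooth muscle actin, best known from the gut and bladder wall, and lies on chr6:83512909-83536251 (minus strand). Its level was 37.3, 27.8 and 24.7 CPM across the WT pools, against 31.7, 34.8 and 36.2 CPM across the KO pools. WT replicate 1 was highest and WT replicate 3 lowest, so the WT range held every KO value. The log2 fold change was 0.19 (standard error 0.15).
The 2 actins are paralogs, and their coding sequences share 84.3% of 1134 aligned positions. The longest run of identical bases was 29, which is shorter than the 50-base reads. The stretch of 60 coding bases in which the genes differ most is shown as an example of the differences that let their reads be told apart. It covers coding bases 436 to 495 of Acta2 and 433 to 492 of Actg2, counted from the A of the start codon, and its 16 differing bases are in capitals:
Acta2: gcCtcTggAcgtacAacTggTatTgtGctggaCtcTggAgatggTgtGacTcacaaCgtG
Actg2: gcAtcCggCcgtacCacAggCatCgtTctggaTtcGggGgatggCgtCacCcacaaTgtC
These bases come from the GENCODE transcripts of both genes on the mm10 assembly, where, introns included, they span chr19:34246199-34246670 and chr6:83520777-83522834. No window of 50 bases of the Actg2 transcript occurred in a transcript of another gene. Of the Acta2 transcript, 0.353% of such windows did, shared with the cytoplasmic actin gene Actg1 and its pseudogenes.

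Tagln and Cnn1 coat the thin filament. Tagln encodes transgelin (SM22), an actin-binding protein and an early marker of smooth muscle, and lies on chr9:45929628-45936058 (minus strand). Its level was 417, 253 and 395 CPM across the WT pools, against 395, 456 and 357 CPM across the KO pools. WT replicate 2 lay below every other library and KO replicate 2 above. The mean CPM was 355 ± 89.2 for WT pools and 403 ± 49.7 for KO pools (SD, n = 3 pools), with a log2 fold change of 0.18 (standard error 0.18).
Cnn1 encodes calponin 1, which binds actin and slows the myosin motor, and lies on chr9:22099221-22109221 (plus strand). Its level was 99.6, 60.7 and 87.5 CPM across the WT pools, against 85.1, 114 and 89.5 CPM across the KO pools. The same libraries were at the ends, WT replicate 2 low and KO replicate 2 high. The log2 fold change was 0.22 (standard error 0.17).
Of the Tagln transcript, 48.3% of the 50-base windows lie in a transcript of another gene. Most of these belong to Gm48529, an antisense gene in the same place, and 3.82% to the end of Pcsk7 on the other strand. The strand setting of the counts is not given in the sources used here, so reads of Tagln and of its antisense neighbours cannot be told apart. Pcsk7, a proprotein convertase gene, had 456 to 649 counts per library and Tagln 2921 to 5509.

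Myh11 and Mylk make up the motor and its switch. Myh11 encodes the smooth muscle myosin heavy chain, the most specific marker of mature smooth muscle, and lies on chr16:14194527-14292188 (minus strand). Its level was 297, 243 and 307 CPM across the WT pools, against 283, 322 and 321 CPM across the KO pools. WT replicate 2 was again the lowest, and the libraries of both genotypes overlapped. The mean CPM was 282 ± 34.4 for WT pools and 309 ± 22.4 for KO pools (SD, n = 3 pools), with a log2 fold change of 0.13 (standard error 0.12).
The count table lists Myh11 under 2 RefSeq transcripts, NM_013607 and NM_001161775, which code for 1938 and 1972 residues and are known as SM2 and SM1. They end differently because SM2 holds an extra exon of 39 bases with an earlier stop codon. The coding part of that exon, chr16:14198058-14198088 on the minus strand, is shown as the piece of sequence that separates the isoforms, with the stop codon in capitals:
Myh11 exon of SM2: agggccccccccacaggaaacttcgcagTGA
The entry with this exon exceeded the other by 2, 5 and 3 counts in the WT libraries and by 7 counts in each KO library, out of 2622 to 3896 counts. The reads of both entries are almost wholly shared, and the table does not record which reads make up the difference. The isoforms were therefore not tested against each other.
Mylk encodes myosin light chain kinase and lies on chr16:34745199-35002436 (plus strand). Its level was 465, 552 and 529.9 CPM across the WT pools, against 445, 504 and 545 CPM across the KO pools. Its range from the lowest to the highest library was 1.24-fold, and WT replicate 2 was the highest. The mean CPM was 516 ± 45.1 for WT pools and 498 ± 50.7 for KO pools (SD, n = 3 pools), with a log2 fold change of -0.05 (standard error 0.12). The deposited entry is the long transcript of 7824 bases. Shorter products of the same gene, the smooth muscle kinase and telokin, use its later exons, and other cells of the lung such as endothelium use the long form, so the counts do not belong to smooth muscle alone.

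Lmod1 and Smtn act on the actin filament itself. Lmod1 encodes leiomodin 1, which starts new actin filaments in smooth muscle, and lies on chr1:135324813-135368065 (plus strand). Its level was 26.1, 18.6 and 20.4 CPM across the WT pools, against 19.9, 20.7 and 23.6 CPM across the KO pools. WT replicate 1 was highest and WT replicate 2 lowest, with the KO libraries between them, and the log2 fold change was -0.02 (standard error 0.15).
Smtn encodes smoothelin, a protein of contractile smooth muscle that binds actin filaments, and lies on chr11:3517522-3539292 (minus strand). Its level was 68.7, 94.7 and 79.7 CPM across the WT pools, against 68.7, 81.3 and 103 CPM across the KO pools. Here WT replicate 2 and KO replicate 3 were the high libraries, and replicate 1 of each genotype was low. The log2 fold change was 0.06 (standard error 0.16). Its 2 RefSeq transcripts differed by 1 count in KO replicate 3 and by 0 elsewhere, and 13.2% of its 50-base windows lie in Gm11946, a gene on the opposite strand.

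Des and Synpo2 tie the filaments together. Des encodes desmin, the intermediate filament of all muscle types, and lies on chr1:75360292-75368579 (plus strand). Its level was 190.4, 179 and 146 CPM across the WT pools, against 165, 177 and 208 CPM across the KO pools. WT replicate 3 was lowest and KO replicate 3 highest. The mean CPM was 172 ± 22.7 for WT pools and 183 ± 22.3 for KO pools (SD, n = 3 pools), with a log2 fold change of 0.09 (standard error 0.13).
Synpo2 encodes synaptopodin 2 (myopodin), an actin-bundling protein of Z-discs and dense bodies, and lies on chr3:123076519-123236168 (minus strand). Its level was 35.6, 33.8 and 30.4 CPM across the WT pools, against 32.99, 40.6 and 49.5 CPM across the KO pools. KO replicate 1 lay inside the WT range and the other KO libraries above it. The mean CPM was 33.3 ± 2.64 for WT pools and 41.0 ± 8.26 for KO pools (SD, n = 3 pools), with a log2 fold change of 0.30 (standard error 0.14), the highest value of the 10 genes, and an unadjusted p of 0.0619 from edgeR.

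**Figure D1:**
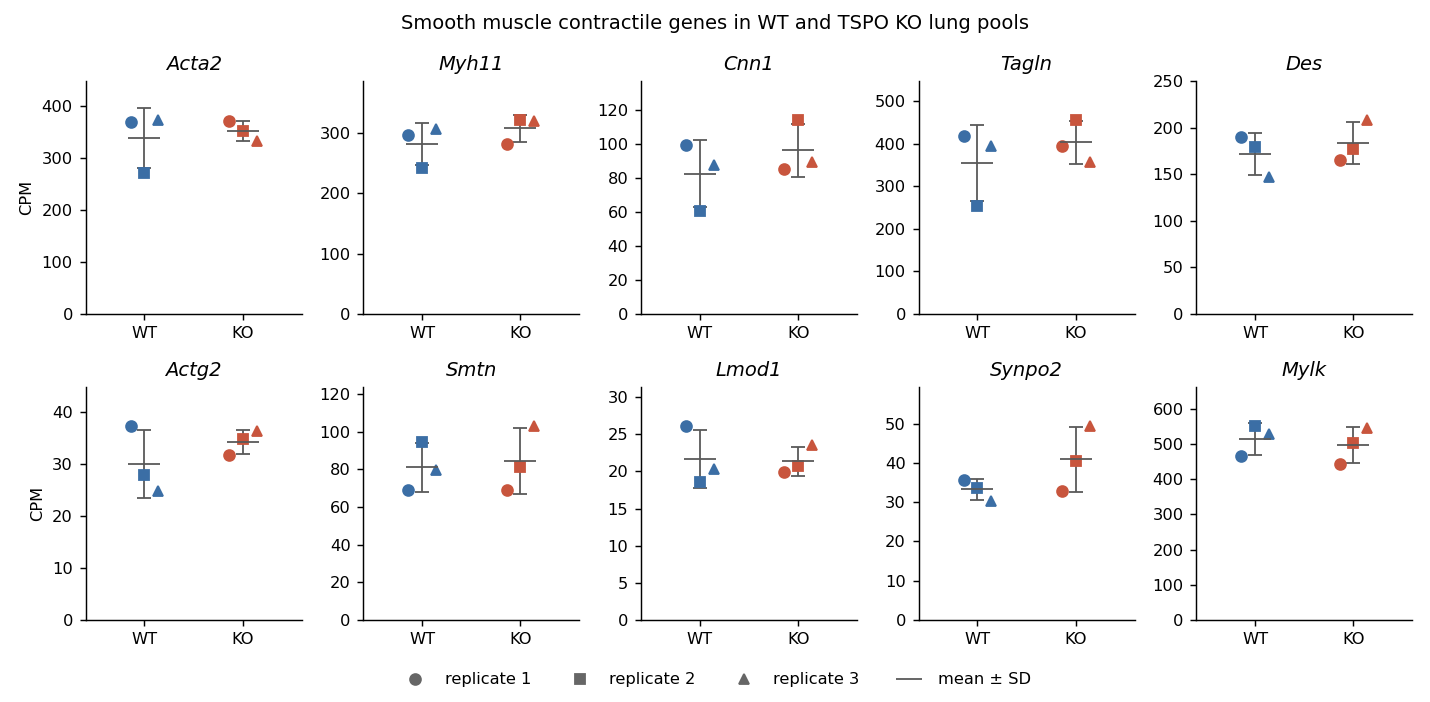
Level of each smooth muscle contractile gene in CPM (vertical axis, from 0) in the 3 WT and the 3 KO pools, with one symbol per replicate number and the mean ± SD beside them. In every panel the WT and KO libraries overlap, and in Acta2, Myh11, Cnn1, Tagln and Lmod1 the lowest point is WT replicate 2 (square).

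None of the 10 contractile genes differed between WT and KO lungs past the threshold (adjusted p = 0.9999 for each, edgeR's quasi-likelihood test over 14802 genes). Across all genes tested, 0.00676% passed, a share that is Tspo alone. At an unadjusted p under 0.05 there were 0 of the 10 genes, against 1.88% of all genes. By limma-voom, DESeq2 and the exact test of edgeR there were also 0 of 10 past the adjusted threshold and 0 of 10 at an unadjusted p under 0.05. The WT and KO libraries overlapped for all 10 genes, and did not overlap for 5.46% of all genes tested.
The 95% intervals, not adjusted for the number of genes, bound the size of any difference. For all 10 genes the interval left out 2-fold changes both up and down, as it did for 93.2% of all genes, and for 8 of 10 it left out 1.5-fold changes, against 75.5% of all genes. The exceptions were Cnn1, whose interval reached from 0.897-fold to 1.52-fold, and Synpo2, from 0.988-fold to 1.53-fold. For Acta2 the interval ran from 0.848-fold to 1.28-fold and for Myh11 from 0.911-fold to 1.31-fold.
The log2 fold change was above 0 for 8 of the 10 genes, where 50.8% of all genes were above 0. The median over the 10 was 0.11, against 0.0022 over all genes. The median moved with single libraries. It was 0.17 with 8 of 10 genes above 0 without WT replicate 1, 0.037 with 7 of 10 without WT replicate 2 and 0.11 with 7 of 10 without WT replicate 3. It was 0.18 with 10 of 10 genes above 0 without KO replicate 1, 0.084 with 9 of 10 without KO replicate 2 and 0.10 with 6 of 10 without KO replicate 3. The sign changed in at least 1 of the 6 fits that each left out a library for Acta2, Tagln, Des, Smtn, Lmod1 and Mylk. Myh11, Cnn1, Actg2 and Synpo2 stayed above 0 in each of these fits. Their lowest values were 0.03, 0.04, 0.08 and 0.14. Without WT replicate 2 the log2 fold change was -0.08 for Acta2, -0.01 for Tagln, 0.04 for Cnn1, 0.03 for Myh11, -0.13 for Lmod1 and 0.14 for Actg2. It was 0.12 for Des, 0.19 for Smtn, 0.31 for Synpo2 and 0.0017 for Mylk. The genes that were lowest in that library thus moved down and Smtn moved up. Without WT replicate 3 the values ran from -0.06 for Lmod1 to 0.27 for Tagln and Cnn1, with Des at -0.0014 and Actg2 at 0.08. The genes share cells and libraries and are not independent of each other.

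**Figure D2:**
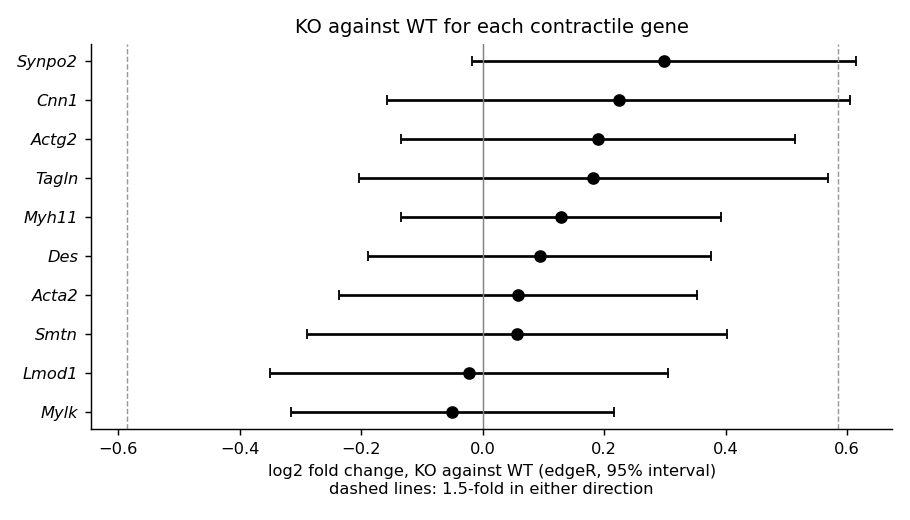
Log2 fold change of each contractile gene in KO against WT lungs (horizontal axis, edgeR) with its 95% interval, the genes ordered by value. Every interval includes 0, and those of Cnn1 and Synpo2 alone cross the dashed line of a 1.5-fold rise.

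The contractile genes did not all follow the same libraries. Acta2, Tagln, Cnn1, Myh11 and Lmod1 were lowest in WT replicate 2, where 19.4% of all genes tested had their lowest value. Tagln and Cnn1 stood there at 62.6% and 63.7% of the mean of the other 5 libraries, Acta2 at 75.4% and Myh11 at 79.4%. In the same library Smtn was at 118% and Mylk at 111% of that mean, and Des at 101%. Des, Smtn and Synpo2 instead had their highest value in KO replicate 3, where 16.7% of all genes tested were highest. In that library Tagln and Acta2 were slightly below their own mean, by 0.06 and 0.05 on the log2 scale.
The spread within a genotype also differed between the genes. Over all genes tested the median SD of log2 CPM within genotypes was 0.17. It was 0.31 for both Tagln and Cnn1, larger than for 86.3% and 86.2% of the genes, and 0.26 for Smtn. It was 0.15 for Myh11 and 0.14 for Mylk, which lay at the 40.4th and 35.6th percentile. Tagln and Cnn1 ranged 1.80-fold and 1.89-fold from the lowest to the highest library, and the median of this ratio was 1.36 over all genes. Without WT replicate 2 Tagln ranged 1.28-fold and Cnn1 1.34-fold, with a median of 1.32 over all genes, and their SD was 0.15 and 0.20, at the 43.8th and 65.5th percentile. Acta2 then ranged 1.13-fold and Myh11 1.14-fold, while Synpo2 at 1.63-fold and Actg2 at 1.51-fold, followed by Smtn, had the widest ranges of the 10 genes. Leaving the library out of the spread was chosen after seeing the data. In whole tissue, fewer smooth muscle cells and less RNA per cell cannot be told apart.

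**Figure D3:**
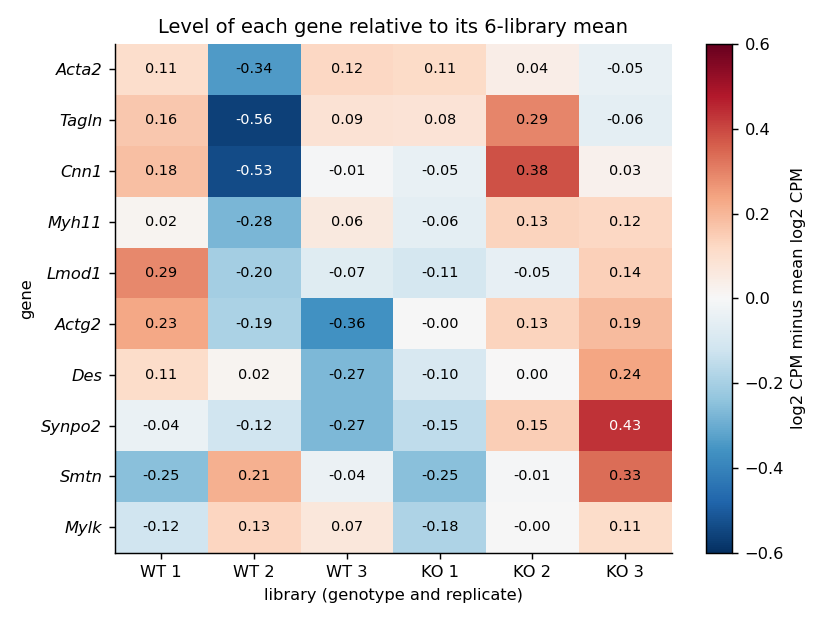
Log2 CPM of each contractile gene (rows) in each library (columns) minus the mean of the gene over the 6 libraries, with blue for lower and red for higher. The column of WT replicate 2 is blue for Acta2, Tagln, Cnn1, Myh11, Lmod1, Actg2 and, faintly, Synpo2, and red for Smtn and Mylk, and the column of KO replicate 3 is reddest for Synpo2 and Smtn.

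Markers of other cells were read beside these values, since the pools may hold different shares of airway, vessel and neighbouring tissue. The 12 genes of heart muscle, which in mice also sheathes the pulmonary veins, were all detected, and their summed level was 372 to 729 CPM in WT and 544 to 606 CPM in KO. It was lowest in WT replicate 2, the library in which Tagln and Cnn1 were lowest. The heart muscle genes Myh6, Tnni3 and Myl7 had log2 fold changes of -0.03, 0.09 and 0.05.
The 12 genes of skeletal muscle summed to 23.6 CPM and 24.9 CPM in WT replicates 1 and 3, 291 CPM in WT replicate 2, and 21.0 to 25.6 CPM in KO. Myh4, a fast myosin of skeletal muscle, was at 0 in 4 of the 6 libraries. Des, which skeletal muscle shares, was at 179 CPM in that library, within the range of the others.
The 10 genes of airway epithelium summed to 23310 to 35305 CPM in WT and 24261 to 33259 CPM in KO, with the lowest sum in WT replicate 2. Most of this sum was Scgb1a1, at 18483 CPM in WT replicate 2, 18626 CPM in KO replicate 3 and 29035 CPM in WT replicate 1. Cyp2f2 was also lowest in WT replicate 2, but Foxj1 was lowest in WT replicate 3, at 59.2 CPM against 79.9 CPM in WT replicate 2. Cartilage of the large airways was close to absent, with 1.54 to 3.04 CPM in WT and 2.68 to 4.33 CPM in KO over 10 genes, and its marker Matn1 was at 0 in every library. Fat genes summed to 51.5 to 118 CPM in WT, highest in WT replicate 2, and 32.9 to 59.4 CPM in KO over 7 genes.
Pericytes and fibroblasts lie next to smooth muscle and share some of its genes. The 11 pericyte genes summed to 876 to 1054 CPM in WT and 890.0 to 1130.2 CPM in KO, and the 10 fibroblast genes to 4160 to 5287 CPM in WT and 4843 to 5947 CPM in KO. Both sums were highest in KO replicate 3, the library in which Des, Smtn and Synpo2 were highest, and lowest in WT replicate 1. Single markers did not all follow the sums. Col1a1, Pdgfrb and Cox4i2 were highest in KO replicate 3, but Dcn was highest in KO replicate 2, Pdgfra in WT replicate 3 and Cspg4 in WT replicate 2. The 9 endothelial genes summed to 5033 to 5798 CPM in WT and 5415 to 5659 CPM in KO. Of the 81 genes on these 8 lists, 64 had enough counts for a test and 0 passed it (edgeR's quasi-likelihood test, and 0 with the other tools). At an unadjusted p under 0.05 there were 7, of which 4 were of skeletal muscle, 2 of fat and 1 of heart muscle, where the share over all genes tested was 1.88%. These counts changed with the library left out and with the test. Without WT replicate 2 there were 1 of skeletal muscle, 0 of fat, 3 of heart muscle and 1 of pericytes. Without KO replicate 1 there were 1 of skeletal muscle, 0 of fat, 1 of heart muscle and 1 of fibroblasts. Leaving out WT replicate 3 instead gave 5 of skeletal muscle, 3 of fat and 3 of heart muscle, with 1 each of fibroblasts and endothelium. By limma-voom on all libraries there were 1 of skeletal muscle, 1 of fat and 1 of heart muscle. The part of these other cells in the levels of the contractile genes was not tested.

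**Figure D4:**
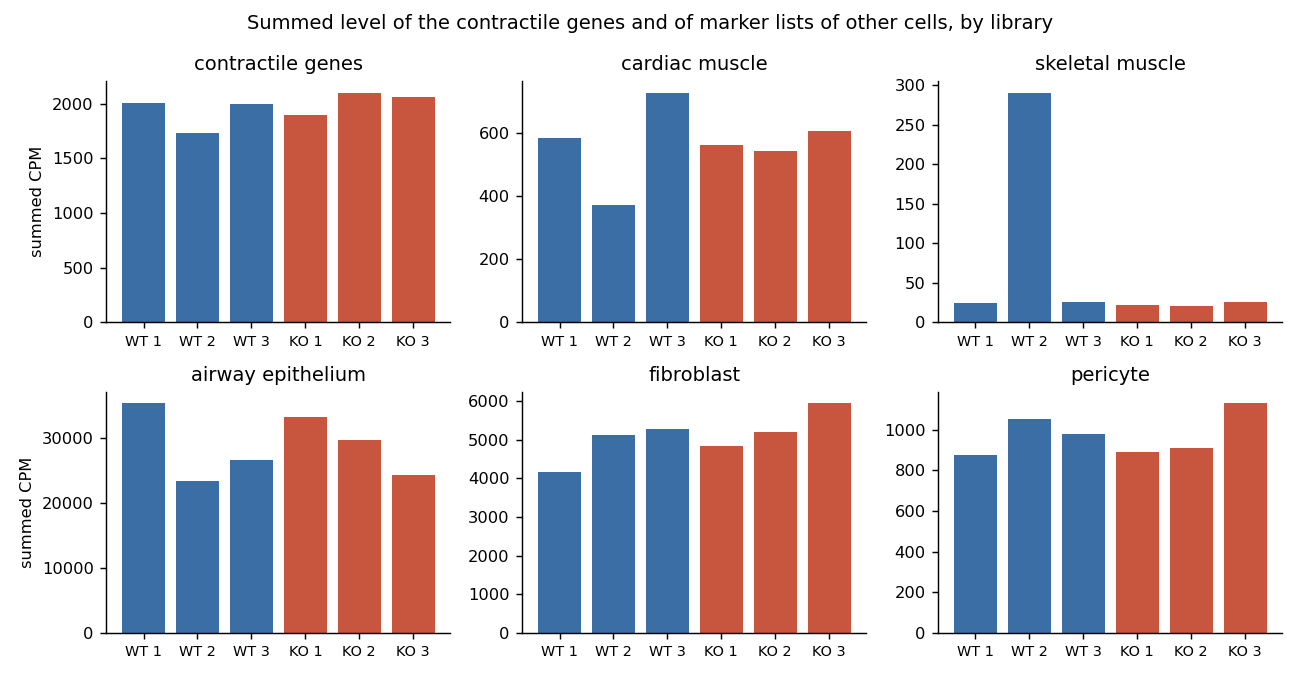
Summed CPM of the 10 contractile genes and of 5 marker lists of other cells (bars, each axis from 0) in the 3 WT (blue) and 3 KO (red) libraries. The contractile genes sum to 1732 CPM in WT replicate 2 and to 1896 to 2102 CPM in the other libraries, and the same library has the lowest heart muscle sum and the highest skeletal muscle sum.

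Genes that work with the contractile set did not pass the test either, and in each of the 3 groups 0 genes had an unadjusted p under 0.05 (edgeR's quasi-likelihood test). By limma-voom, DESeq2 and the exact test of edgeR 0 passed as well, and the unadjusted p was under 0.05 for 1 gene with DESeq2, Klf4, and for 0 with the other tools. Of 15 filament partners, the light chains, tropomyosins and adhesion proteins to which the contractile filaments attach, 0 passed in either direction, 8 had log2 fold changes above 0 and 7 below, and the median was 0.02. Myl9, the regulatory light chain that Mylk phosphorylates, had 187, 128 and 169 CPM across the WT pools, against 188, 193 and 179 CPM across the KO pools. Like Acta2 and Tagln it was lowest in WT replicate 2, and its log2 fold change was 0.21 (standard error 0.13). The value was 0.07 without that library and 0.33 without WT replicate 1, where the unadjusted p from edgeR was 0.0402. Myl6, the essential light chain, and Nexn, the actin-binding protein nexilin, were also lowest there. Their log2 fold changes were 0.12 and 0.16, and 0.03 and 0.05 without that library.
Of 20 genes that switch contraction on or off, 0 passed, 9 were above 0 and 11 below, with a median of -0.0068. Calm2 and Calm3, which encode calmodulin, had log2 fold changes of 0.12 and 0.09, and 0.03 and 0.09 without WT replicate 2. Ppp1r14a (CPI-17), an inhibitor of myosin phosphatase, was at 0.10, and Arhgef1, which activates the small GTPase RhoA downstream of contractile receptors, at -0.15 (-0.07 without WT replicate 2). The other channels, pumps and kinases of the list lay between Arhgef1 and Calm2.
Of SRF and 8 of its regulators, 0 passed, 4 were above 0 and 5 below, with a median of -0.07. Srf was at 0.10 (standard error 0.11), and Myocd, the muscle-restricted coactivator, was scarce at 3.66 ± 0.398 CPM for WT pools and 3.23 ± 0.432 CPM for KO pools (SD, n = 3 pools), with a log2 fold change of -0.19 (standard error 0.23). Gata6, a transcription factor of smooth muscle and lung epithelium, was at -0.13, and at 0.04 without WT replicate 2. Klf4, a repressor of smooth muscle genes that endothelium also expresses, had 162, 193 and 216 CPM across the WT pools, against 222, 228 and 224 CPM across the KO pools. Its KO libraries lay above its WT libraries, as for 2.28% of all genes tested, and its log2 fold change was 0.24 (standard error 0.12), with an unadjusted p of 0.0647 and an adjusted p of 0.9999 from edgeR. The unadjusted p of Klf4 was 0.0273 without composition scaling, 0.0497 with DESeq2 and 0.0171 without WT replicate 3, where the log2 fold change was 0.35. Without WT replicate 1 the value was 0.14, and the adjusted p was at least 0.963 under each alternative run.

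**Figure D5:**
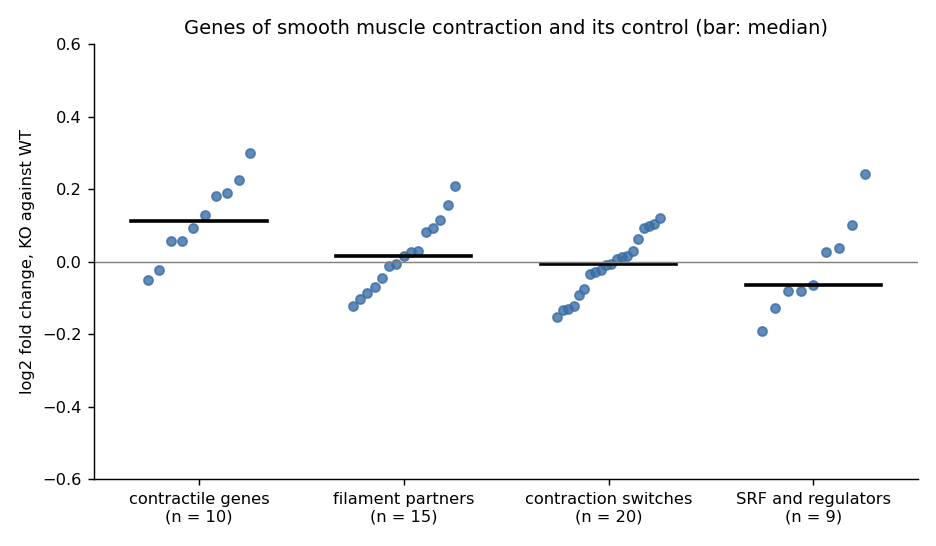
Log2 fold change in KO against WT lungs (vertical axis, edgeR) of the 10 contractile genes, 15 filament partners, 20 contraction switches, and SRF with 8 regulators, one point per gene and a bar at the median. All points lie between -0.19 and 0.30, and the medians are 0.11, 0.02, -0.0068 and -0.07.

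SRF acts through the CArG box, so the 250 bases upstream of each start were searched for it. The RefSeq promoter table of the mm10 assembly (GRCm38.p6) holds a window for 7 of the 10 genes and none for Myh11, Tagln and Actg2. The CArG box was read on both strands, since its reverse complement has the same form. The full element was found in 0 of the 7 windows and in 1.47% of 32851 windows in the table. With 1 base of its 6-base core allowed to differ, it was found in 1 of 7, that of Acta2, and in 8.59% of all windows. The Acta2 window held 2 such elements, as did 0.67% of all windows with 2 or more. They are shown because they are the sequence through which SRF is known to act on alpha smooth muscle actin, each with the element in capitals and 10 bases to either side:
Acta2 element at 84 to 75 bases upstream, chr19:34255438-34255467, minus strand: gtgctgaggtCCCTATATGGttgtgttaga
Acta2 element at 34 to 25 bases upstream, chr19:34255388-34255417, minus strand: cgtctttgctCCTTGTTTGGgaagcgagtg
Distances are from the start in the promoter table, and other starts lie further upstream. The GENCODE transcript of Acta2 begins 217 bases further upstream, so that both elements lie in the first exon of that transcript. The RefSeq gene given above, on the minus strand with its upper end at 34255585, also holds both elements. For the other 6 genes the result says only that these letters are not in the window searched.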

How the data were processed

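The authors aligned 50 bp paired-end HiSeq reads of lung RNA to mm10 with TopHat, and the deposited values are raw counts per transcript, not normalized. The tool that counted reads, its annotation release and whether strand was used were not given in the sources used here. By their labels, all 6 columns were mapped to a pool. RefSeq rows were used (31176 of 64529 entries, the rest FANTOM3 clones), and the row with the largest total stood for each gene. filterByExpr (count minimum 10, total minimum 15) left 14802 genes, which were scaled by TMM and tested with edgeR's quasi-likelihood test (edgeR 4.0.16, limma 3.58.1, DESeq2 1.42.0, R 4.3.3). P-values were adjusted by Benjamini-Hochberg over all genes tested, with a threshold of 0.05, and intervals cover 95%. Standard errors are not an output of this test. They were derived as the absolute log2 fold change divided by the square root of its F statistic, and the intervals from them with the t distribution. The code was tested on simulated data.

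The genes and lists were chosen with earlier results of these data known. Named were all 10 contractile genes, of each further list the 4 with the smallest p, Tspo, Rn45s, and of each marker list the first 3 genes, of which the text gives a part. Spread was taken on log2(CPM + 0.5). Libraries of a genotype differed by 7.60 times the sampling noise or more (chi-square per degree of freedom). Transcript lengths and 50-base windows came from GENCODE M21. Same-numbered WT and KO libraries did not deviate together (r across genes 0.15, -0.25 and -0.29), so the numbers were not treated as pairs.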

Additional observations from a re-analysis of the deposited data

How the results depend on the processing

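Under the 18 alternatives (other scaling, tests, filters, transcript choices and thresholds, a replicate block, and each library left out) 0 of the 10 contractile genes passed the test each time, and the smallest adjusted p was 0.963. Unadjusted p fell under 0.05 for Synpo2 with no filter (0.0432), with each deposited entry tested by itself (0.0461) and without KO replicate 1 (0.00824), and for Actg2 without WT replicate 1 (0.0172). Among the named partner and regulator genes this held for Klf4 (0.0171 to 0.0497 in 3 of the alternatives) and Myl9 (0.0402 without WT replicate 1). Of the other genes on these lists it held for Cacna1c, one of the contraction switches, without KO replicate 3. The number of genes past the threshold over all genes was 1 to 2 with a library left out and 1 otherwise. The second gene, without WT replicate 1, was Gdpd3, a lysophospholipase D, at 3.30 (adjusted p = 0.00823, edgeR), named after its values were seen. The median of the 10 genes ran from 0.037 (without WT replicate 2) to 0.18 (without KO replicate 1), and with the replicate block it was 0.11 with no contractile gene called and 1 gene called in all.

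Of 170 values of contractile genes under these alternatives, 158 kept their sign and 12 changed it. Without composition scaling Lmod1 was at 0.0096, and all genes had a median of 0.04. With a library left out, the ranges that crossed 0 were -0.079 to 0.14 for Acta2, -0.012 to 0.32 for Tagln, -0.0066 to 0.17 for Des, -0.11 to 0.19 for Smtn, -0.13 to 0.14 for Lmod1, -0.12 to 0.023 for Mylk and -0.25 to 0.038 for Gata6. The cause of these changes was not tested beyond the library left out. With 3 pools per genotype, differences as large as those inside the interval of each gene remain possible. The intervals are for single genes and are not adjusted for the 14802 genes tested. Passing the adjusted threshold asked for more than an interval that leaves out 0.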
